A study of Populus x canadensis with 4 samples.

Results

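The 3 leaf libraries of hybrid poplar given para-hydroxybenzoic acid, at 2, 4 and 8 mM, were taken as 1 treated group and set against the 1 untreated library, at 0 mM. These were all 4 libraries of the series. The plants were Populus × euramericana "Neva", grown from cuttings in water culture and 90 days old when treated, and the treatment lasted 3 days. Para-hydroxybenzoic acid is a phenolic acid found in root exudates and plant litter, and it is known to hold back plant growth when it builds up in soil. The labels name no other agent, strain or genotype that separates the groups. Per the labels' protocols, RNA of plants with the same treatment had been mixed in equal parts, so each library was a pool and does not show how much plants differ. The treated libraries differed in dose, so their spread holds dose and sampling together, and the untreated group had no second library to check it. An exact permutation test of 3 libraries against 1 cannot go below p = 0.25, so a single sequence has no test of its own beside a fit across all sequences. No microRNA marks the leaf by itself, so the tissue is taken from the labels.

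MicroRNAs are short RNAs cut by Dicer-like enzymes from hairpin precursors. From the duplex that is cut out, usually 1 strand is loaded into an Argonaute protein and kept, while the strand of the other hairpin arm is degraded. The loaded strand guides the cleavage or translational repression of matching messenger RNAs, and bases 2 to 8, the seed, weigh heavily in the match. In leaves, microRNA families are known for setting developmental age, leaf shape, auxin response, nutrient use and the level of disease resistance genes. The families miR162 and miR168 act on the machinery itself, since they target the messengers of DCL1 and AGO1.

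The following sequences stood outside the treated range in the untreated library and carry the results below. They are printed 5′ to 3′ in DNA letters as the authors' table lists them, with the seed in capitals. In the names, ptc stands for Populus trichocarpa, and a suffix such as R+1 or 1ss7TC is taken to mark a variant with longer or shorter ends or another base than the microRNA it is named for. A name ending in p3 or p5 after MIR is read as an arm of the hairpin without a mature name of its own. The first set had all 3 treated libraries above the untreated one.
ptc-miR162a: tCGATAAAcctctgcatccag
hpe-miR162a_R+3: tCGATAAAcctctgcatccagttt
ptc-miR167f-5p_R+1: tGAAGCTGccagcatgatctta
ptc-miR472a: tTTTCCCTactccacccatccc
ptc-miR472b: tTTTCCCAactccacccatccc
ptc-miR530b_R+1: tGCATTTGcacctgcatcttt
csi-miR1515: tCATTTTTgcgtgcaatgatcc
ptc-MIR481d-p5: tTCTTTGAcatggtatcagagcct
ptc-MIR481c-p5_1ss23AG: cTTAAGCTtttgggttgagatggt
PC-3p-70722_70: tTAAACTAcaagaccccctgc
The second set had all 3 treated libraries below the untreated one.
ptc-miR168a-5p: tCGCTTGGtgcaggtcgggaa
ptc-miR168a-3p: cCCGCCTTgcatcaactgaat
ptc-miR156a: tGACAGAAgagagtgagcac
ptc-miR156g: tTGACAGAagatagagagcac
ath-miR157d_L+1: cTGACAGAagatagagagcac
ptc-miR827: tTAGATGAccatcaacgaaaa
ptc-MIR160d-p3: gCGTGCGAggagccaagcata
ptc-MIR472a-p5_1ss7TC: gGTGGGCGagcggggaagata
gma-miR6300: gTCGTTGTagtatagtgg
The miR156 and miR157 forms shown carry the seed GACAGAA or TGACAGA.

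Reads assigned to the listed sequences came to 4998878, 6369127 and 5310499 in the treated libraries at 2, 4 and 8 mM, against 2640653 in the untreated library. The untreated library was thus the shallowest, and 120 of the 529 distinct sequences were listed at 0 in it, against 91, 84 and 88 in the treated ones. For a fold taken from a listed 0, the 0 was given the worth of 3 reads. That is 2.96, 2.50 and 2.67 normalized read counts in the treated libraries and 4.07 in the untreated one. The smallest family total above 0 was 5 reads, so a listed 0 may stand for more than 3. Levels are the authors' normalized read counts, with rows of the same sequence summed. Of the 529 sequences, 350 averaged at least 10 across the libraries and were compared, and the other 179 were not. Intervals given with folds are exact 95% intervals of the ratio between the untreated library and the nearest treated one. They cover counting error only, since PCR copies of the same molecule were not marked and cannot be set apart.

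In 247 of the 350 sequences, 70.6%, the untreated value lay outside the range of all 3 treated values. The treated values lay wholly above it for 123 sequences, 35.1%, and wholly below it for 124, 35.4%. A single library lies at an end of the order of 4 values for many sequences whatever was done to it, so these shares are the background against which each group below is read. The gap between the untreated and the nearest treated value, on log2(value + 1), reached 2-fold for 33 sequences above, 9.43%, and for 37 below, 10.6%. These gaps kept a listed 0 as 0, so they can pass 2-fold where a fold with 3 reads in its place does not. The interval excluded 1 for 28 of those 33 and 36 of those 37. The gap was wider than the whole range of the treated values for 64 sequences above, 18.3%, and 49 below, 14%, a measure added after the data were seen. Across the 350 sequences the median of the mean log2 ratio, treated over untreated, was -0.01.

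The split depends on the scaling of the libraries. With equal table totals, log2 ratios to the untreated library were lower by 0.46, 0.57 and 0.40 at 2, 4 and 8 mM, and 78 sequences lay above and 184 below, with 23 and 65 past 2-fold. Of the 123 sequences above on the authors' scale, 78 remained above under all 4 scalings tried, 37 lay inside the treated range with equal table totals and 8 lay below. Of the 103 inside the treated range on the authors' scale, 52 lay below with equal table totals and 0 above. All 124 sequences below, and all 37 of those past 2-fold, remained so under the same 4 scalings. This could not come out otherwise, since each alternative lowered every treated library against the untreated one. The log2 shifts at 2, 4 and 8 mM were -0.09, -0.17 and -0.09 with TMM and -0.02, -0.01 and -0.001 with DESeq2 size factors. The count is therefore no check of the lower side.

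**Figure D1:**
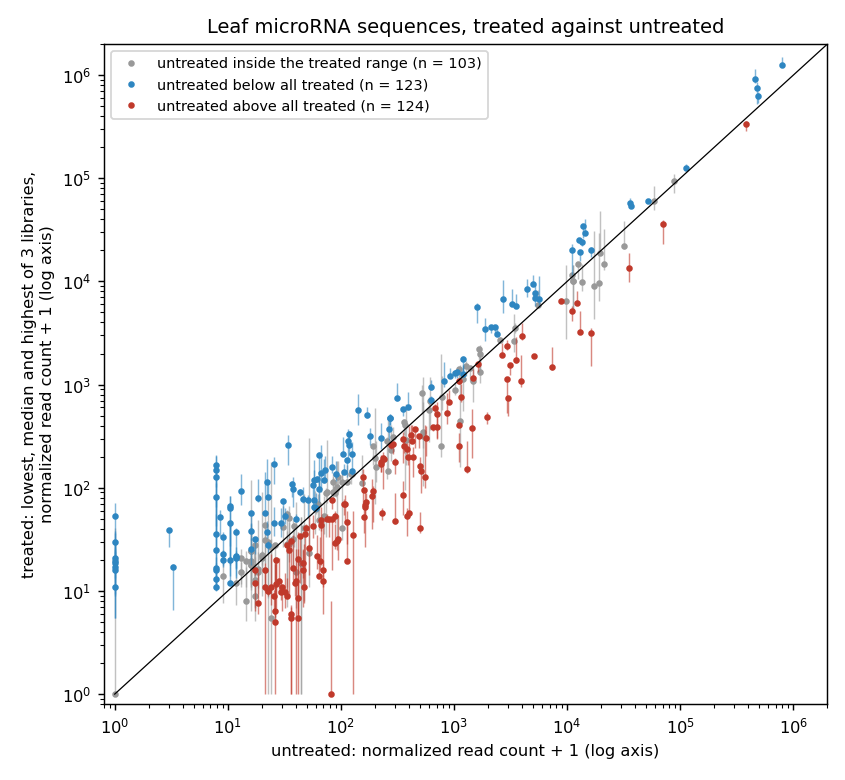
Normalized read count of each of the 350 sequences in the untreated library (x axis, plus 1, log scale) against the 3 treated libraries (y axis, plus 1, log scale), where the point is the treated median and the vertical line runs from the lowest to the highest treated value. Sequences whose line lies above the diagonal (123) or below it (124) are coloured, and 103 have the untreated value inside the treated range.

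Among the most abundant sequences the untreated library was the lowest more often than the highest. Of the 20 most abundant, 12 lay above, 3 below and 5 inside the treated range, and none was 2-fold away. With equal table totals the same 20 split into 8 above, 8 below and 4 inside. The strand ptc-miR472a, the most abundant of all, had 1211447 normalized read counts at 2 mM, 1486719 at 4 mM and 1249876 at 8 mM, against 798946 in the untreated library. The next, ptc-miR472b, stood at 840936, 1140347 and 922747, against 454856. Both lay above the untreated value in every treated library, also with equal table totals, and the family is known for acting on NBS-LRR genes, a large class of disease resistance genes. The nearest treated library was 1.52-fold higher for ptc-miR472a (1.51 to 1.52) and 1.85-fold higher for ptc-miR472b (1.84 to 1.86). Others were close to the untreated value. The main miR166 strand, ptc-miR166a, stood at 632928, 536308 and 692480, against 487394, and lay inside the treated range with equal table totals. For ptc-miR482c-3p the values were 126098, 121087 and 137318, against 112097, and its gap of 0.11 turned to -0.11 with equal table totals.

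The sequences of the disease resistance list (miR472, miR482, miR1448, miR2118 and miR3627; miR1507 had no sequence compared) lay above in 10 of 22 cases, below in 9 and inside in 3, with a median log2 ratio of 0.05. The split was 5 above and 13 below with equal table totals. None was 2-fold above and 2 were 2-fold below on the authors' scale. Among them was ptc-MIR472a-p5_1ss7TC, an arm opposite to an abundant strand. The miR482 total, at 525018, 584437 and 503387 normalized read counts in the treated libraries, enclosed the untreated total of 565186. With equal table totals it lay wholly below, with a gap of -0.52. The miR1448 total, at 869251, 759114 and 538089, lay above the untreated 488524, but not with equal table totals.

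The regulators of the small RNA machinery lay on opposite sides. The DCL1-targeting strand ptc-miR162a had 25478 normalized read counts at 2 mM, 25168 at 4 mM and 24813 at 8 mM, against 12726 in the untreated library. The treated values differed among themselves by 0.04 on the log2 scale, while the nearest lay 1.95-fold above the untreated value (1.90 to 2.00). All 3 forms with the miR162 seed lay above, the 24 nt form hpe-miR162a_R+3 at 40.4, 63.3 and 82.9 against 9.49. With equal table totals the gap of ptc-miR162a was 0.42 in place of 0.96, in the same direction. The AGO1-targeting strand ptc-miR168a-5p stood at 13605, 9830 and 18996, against 35066, so that the nearest treated library was 1.85-fold lower (1.81 to 1.88). Its opposite arm ptc-miR168a-3p was tighter, at 1874, 1884 and 1986 against 5049, 2.54-fold lower in the nearest treated library (2.41 to 2.68). Of the 6 miR168 sequences, 5 lay below and 1 inside. The miR403 total, of a family that targets AGO2, stood at 4154, 4778 and 5160, around the untreated 4272. With equal table totals it lay wholly below, with a gap of -0.13. csi-miR1515, whose family targets DCL2 in soybean, stood at 3916, 6211 and 5637, against 1607, 2.44-fold higher in the nearest treated library (2.28 to 2.602). Its gap stayed positive with equal table totals, at 0.82. The small RNA machinery list (miR162, miR168 and miR403) as a whole had 5 of 15 above, 7 below and 3 inside, with a median log2 ratio of -0.22, and with equal table totals 4 above and 9 below.

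The total of the age-setting miR156 and the 1 sequence named miR157 were lower in every treated library. The family total of miR156, whose targets are SPL genes that promote the adult phase, stood at 43031, 54927 and 60166, against 94502 in the untreated library. The strand ptc-miR156g stood at 23017, 36339 and 39271, against 69626, and ptc-miR156a at 3211, 3264 and 5116, against 13095. In the nearest treated library they were 1.77-fold (1.75 to 1.796) and 2.56-fold (2.48 to 2.65) lower. All 6 sequences with either of the seeds GACAGAA and TGACAGA lay below, including ath-miR157d_L+1 at 7.89, 12.5 and 8.02 against 32.5. That sequence differs from the far more abundant ptc-miR156g only in its first base and had 24 untreated reads. Whether its reads are separate from those of ptc-miR156g was not tested. The hairpin arms without a mature name did not share a side. ptc-MIR156i-p3 stood at 412, 479 and 544 against 1961, wholly below, whereas ptc-MIR156f-p3 stood at 11411, 9004 and 9430 against 5030, wholly above. The miR172 total, of the family that acts after miR156 in phase change, stood at 1420, 2476 and 2185, around the untreated 1946. With equal table totals it lay wholly below, with a gap of -0.22. The age list (miR156, miR157 and miR172; miR529 and miR535 had no sequence compared) had 3 of 19 sequences above, 9 below and 7 inside, with a median log2 ratio of -0.77, and with equal table totals 2 above and 16 below.

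**Figure D2:**
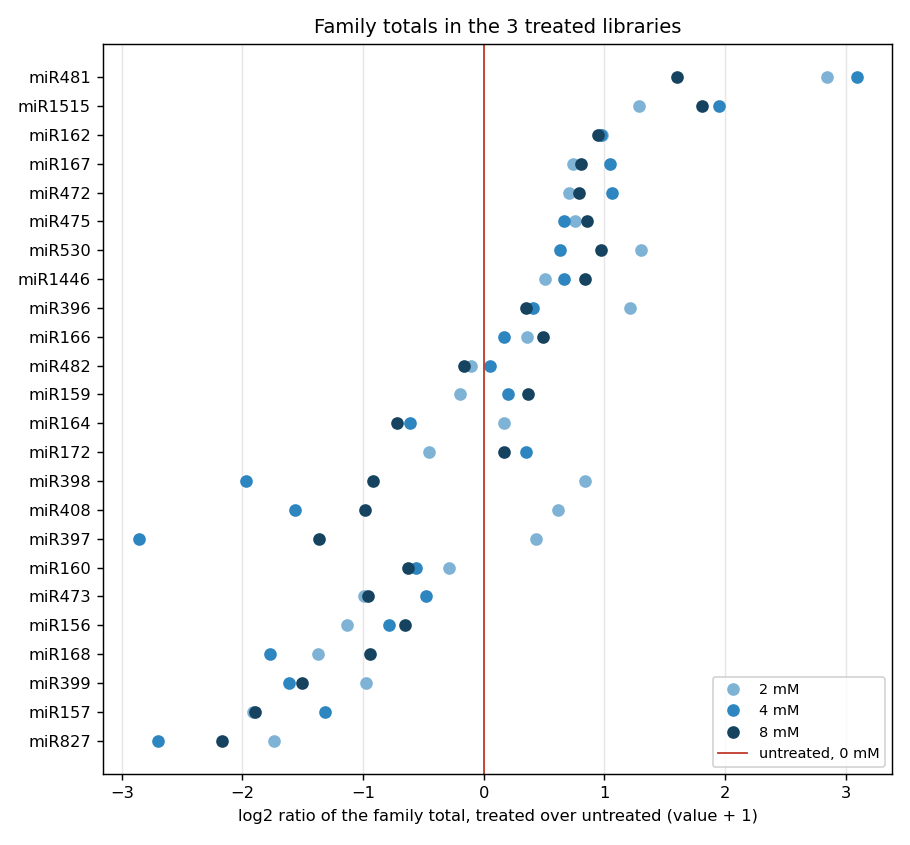
Log2 ratio (value + 1) of family totals in each treated library over the untreated library, for 24 families chosen after their values were seen; points are the 2, 4 and 8 mM libraries and the line marks the untreated library. miR162, miR167 and miR472 lie to the right of the line and miR156, miR168 and miR827 to the left in all 3, while miR398, miR408 and miR397 lie on both sides.

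The auxin families lay on different sides. miR167, which restrains the auxin response factors ARF6 and ARF8, stood at 54206, 66787 and 56644 in the treated libraries, against 32425 in the untreated one, 1.67-fold higher in the nearest (1.65 to 1.70). Its most abundant strand, ptc-miR167f-5p_R+1, stood at 34284, 34066 and 26324, against 13903. On the authors' scale all 7 sequences with the seed GAAGCTG at this position lay above. Of these, mtr-miR167b-5p_R+1_1 and mtr-miR167b-5p_R+1_2 had the same values and may be 1 pool of reads. Gaps among the 7 ran from 0.08 for ptc-miR167e to 0.92 for ptc-miR167f-5p_R+1. With equal table totals the family total stayed above, with a gap of 0.28. The gap of ptc-miR167e is smaller than the shift of each treated library under that scaling, so this sequence was not wholly above there. The miR160 total stood at 4857, 4018 and 3830, against 5921, with the nearest treated library 1.22-fold lower (1.17 to 1.27). Minor forms of that family had wider gaps. The sequence ptc-MIR160d-p3, which the table also lists as ptc-MIR160a-p3, stood at 57.2, 35.8 and 40.1, against 495, 8.66-fold lower in the nearest treated library (6.55 to 11.6). Of the 33 auxin sequences (miR160, miR167, miR390 and miR393), 14 lay above, 12 below and 7 inside, with a median log2 ratio of 0.06, whereas with equal table totals 9 lay above and 15 below.

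The leaf growth and polarity families (miR159, miR164, miR166, miR319, miR394 and miR396) held 22 of 51 sequences above, 11 below and 18 inside, with a median log2 ratio of 0.15. This balance turned with equal table totals, to 16 above and 19 below. The abundant strands of miR396, a family that restrains growth-regulating factors, did not share a position. ptc-miR396c stood at 40491, 29716 and 28017, against 14489, 1.93-fold higher in the nearest treated library (1.89 to 1.98), while ptc-miR396a, at 48368, 19032 and 18774, lay on both sides of the untreated 19358. Scarcer miR396 forms had wider gaps, such as ama-miR396-5p_R+1_1ss19CT at 320, 259 and 165 against 33.2. The arm ptc-MIR396a-p3 went the other way, at 748, 490 and 760 against 3023. The totals of miR159, miR164 and miR319 enclosed the untreated total on the authors' scale. With equal table totals those of miR159 (gap -0.04) and miR164 (-0.30) lay wholly below it. For miR319, whose targets are TCP factors of leaf shape, the treated totals were 2600, 354 and 452, around 1202.

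Other families with a wide share above were those listed as narrowly conserved Populus families, with 20 of 33 above, 8 below and 5 inside. Their median log2 ratio was 0.46, and the count with equal table totals was 14 above and 14 below. The sequences compared were of miR481, miR530, miR1446, miR1447, miR1450, miR6421, miR6427, miR6445, miR6462, miR6478, miR7836, miR7838 and miR7841. Some, such as htu-miR530_R+1, htu-miR530_R+3 and mes-miR1446_R+1_1ss20TA, carry names of other species. miR6478 is counted again below among the names that resemble transfer or ribosomal RNA. Of 50 listed sequences 33 reached the mean of 10, which is taken over 3 treated libraries and 1 untreated one. That filter favours sequences high in the treated libraries, so the share above is a description only. Within this list 12 miR481 sequences were listed, of which 6 reached the mean of 10, and those 6 lay above, 5 of them past 2-fold. The 5 past 2-fold, all of 24 nt, had a median of 5 untreated reads and reached the mean through the treated libraries. The other, ptc-MIR481c-p3_2ss19CT21TC, had a mean of 149 and a gap of 0.73. The count of the 6 is therefore a description only. ptc-MIR481d-p5 stood at 166, 202 and 63.7 normalized read counts, against 6.78 in the untreated library, and ptc-MIR481c-p5_1ss23AG at 149, 204 and 41.9, against 6.78. Both untreated values rest on 5 reads, and the interval for ptc-MIR481d-p5 ran from 3.87 to 30.03 around 9.46-fold, computed from reads rounded to whole numbers. The 8 mM library was the lowest treated one for both. On the authors' scale all 4 miR530 sequences with the seed GCATTTG lay above as well. ptc-miR530b_R+1 stood at 606, 503 and 471.5 against 170, and ptc-miR530a_R+1 at 4435, 2666 and 3492 against 1885. With equal table totals the 4 mM value of ptc-miR530a_R+1 lay under the untreated one, so it was not wholly above. The gap of the miR530 total fell from 0.63 to 0.07. The strand ptc-miR475a-3p, of a family that targets pentatricopeptide repeat genes, stood at 24116, 22197 and 25494, against 13398. Its list (miR475 and miR476; miR474 had no sequence compared) had 5 of 8 above, 1 below and 2 inside, with a median log2 ratio of 0.35, and with equal table totals 3 above and 3 below.

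The phosphate and sulphate families (miR395, miR399 and miR827 among the sequences compared) had 1 of 8 sequences above, 4 below and 3 inside, with a median log2 ratio of -0.67; none was 2-fold above and 3 were 2-fold below. ptc-miR827, which targets SPX domain genes of phosphate use, stood at 339, 177 and 255, against 1115, 3.29-fold lower in the nearest treated library (2.89 to 3.74). The miR399 total stood at 212, 137 and 147, against 419. The arm ptc-MIR399e-p5 had the widest gap of all on the lower side, at 6.90, 0 and 0 against 81.4. The copper and laccase families (miR397, miR398, miR408 and miR1444) had totals that enclosed the untreated one on the authors' scale. This rested on the 2 mM library. Without it all of these totals lay below, with gaps of -1.36, -0.92, -0.98 and -0.55 in the same order. Of 17 sequences 0 lay above, 5 below and 12 inside, and 0 were 2-fold away, although their median log2 ratio was -0.83. The miR398 total, at 31955, 4564 and 9461, spanned the untreated 17879, with the 2 mM value above it and the others below. The NF-YA and GRAS families (miR169, miR171, miR473 and miR477; miR170 and miR479 had no sequence compared) had 13 of 32 above, 12 below and 7 inside, with a median of 0.05, whereas with equal table totals 8 lay above and 17 below. The phenylpropanoid MYB list (miR828 and miR858) had 0 of 3 above, 1 below and 2 inside, with a median of -0.12.

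The 12 widest gaps in each direction were held by scarce sequences above, and below largely by hairpin arms without a mature name and 18 or 19 nt forms. On the upper side 8 sequences with a mean of at least 10 were listed at 0 in the untreated library and above 0 in every treated one. The widest was the candidate PC-3p-70722_70, at 28.6, 35.8 and 19.6 normalized read counts, against 0. With 3 reads in place of the 0, it was 4.82-fold higher in the nearest treated library, and mtr-miR166c_L+5R-2, at 19.7, 23.7 and 17.8, was 4.38-fold higher. For ptc-MIR7836-p3 and PC-3p-144023_24 the same ratio was 1.10-fold, so a listed 0 that stands for more reads could hold their whole gap. With the 0 kept, the gap of ptc-MIR7836-p3 on log2(value + 1) was 2.45, so it counts as past 2-fold. No sequence with a mean of at least 10 was listed at 0 in all treated libraries and above 0 in the untreated one. The mean over 3 treated libraries and 1 untreated one lets in the first kind more readily than the second, so these counts cannot be compared. Without the filter there were 32 sequences of the first kind and 19 of the second. The lower depth of the untreated library also favours the first kind there. The widest gap on the upper side that did not start from 0 was gma-MIR4995-p3_1ss19GC, at 156, 125 and 99.8 against 6.78, which rests on 5 untreated reads. The predicted candidates as a group, which come from the authors' own table, had 17 of 27 above, 7 below and 3 inside, with a median of 0.63, and 11 above and 8 below with equal table totals. Of 44 listed candidates 27 reached the mean of 10, some with a listed 0 in the untreated library. They reached it through the treated libraries, so the count is a description only.

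**Figure D3:**
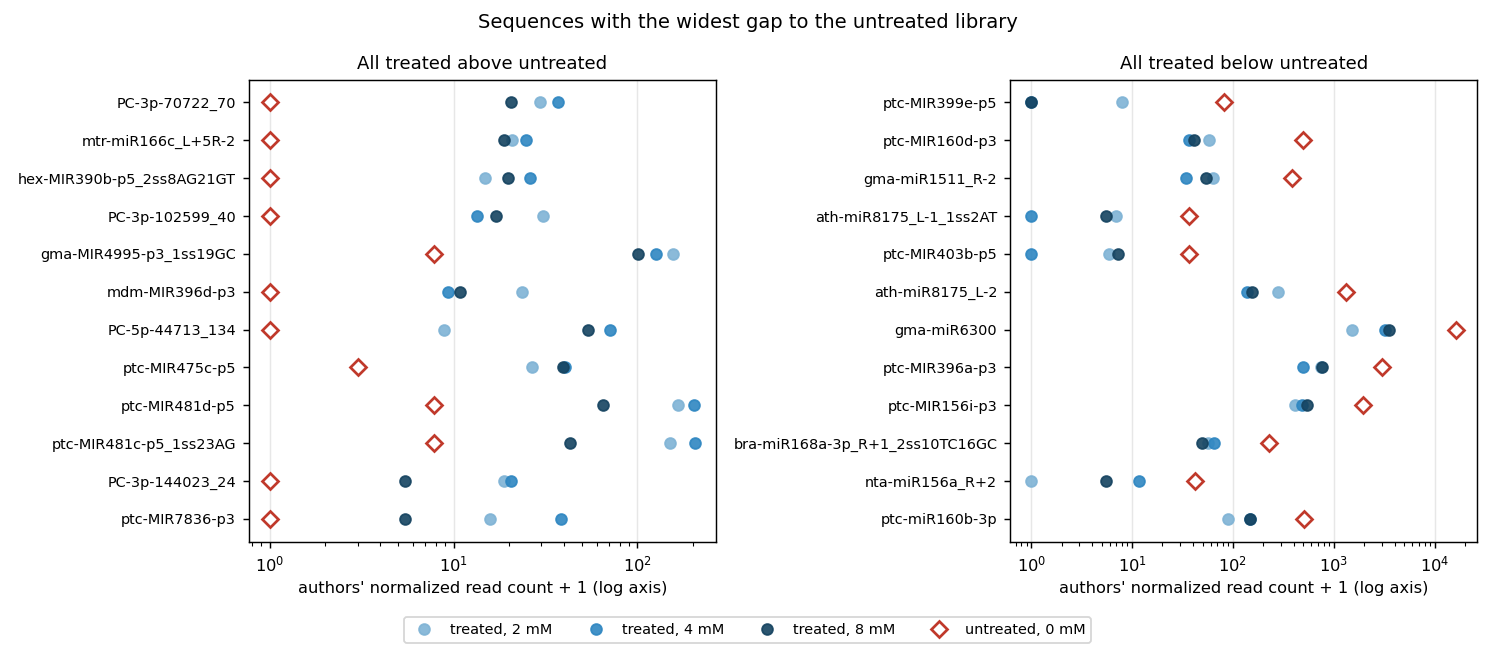
Normalized read counts (plus 1, log axis) of the 12 sequences with the widest gap above the untreated library (left) and the 12 with the widest gap below it (right), with circles for the 3 treated libraries and a diamond for the untreated one. On the left 8 diamonds sit at a listed 0, and on the right ptc-MIR160d-p3 has treated values of 35.8 to 57.2 against 495.

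The arms of the same hairpin lay on the same side of the untreated library as well as on opposite sides. Names paired an abundant strand with the less abundant arm of the same Populus hairpin for 56 pairs, counted once per pair of sequences. The less abundant arm lay below in 27 pairs, above in 16 and inside in 13, whereas the more abundant arm lay below in 13, above in 26 and inside in 17. In 13 pairs the more abundant arm lay above and the other below, and the reverse was seen in 3. Both arms lay above in 8 pairs and both below in 8. For the miR472a hairpin, ptc-miR472a lay above while ptc-MIR472a-p5_1ss7TC stood at 403, 408 and 400 against 1116, 2.74-fold lower in the nearest treated library (2.44 to 3.07). The treated values of that arm were almost equal, differing by 0.03 on the log2 scale. For the miR472b hairpin the opposite arm ptc-MIR472b-p5 stood at 104, 92.4 and 45.5, against 193. For the miR167f hairpin, ptc-miR167f-3p stood at 127, 199 and 248, against 434, opposite to its abundant strand. In the miR166n hairpin, ptc-MIR166n-p5 stood at 27.6, 46.6 and 45.5, against 111, while ptc-miR166n_L+2R-2 stood at 51034, 57833 and 53901 against 36574. With equal table totals 8 of the 13 pairs kept both positions, and in all 56 pairs the less abundant arm was below in 35 and above in 12. A hairpin that shares its arm sequence with another cannot be told from it, so a pair can stand for several loci.

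**Figure D4:**
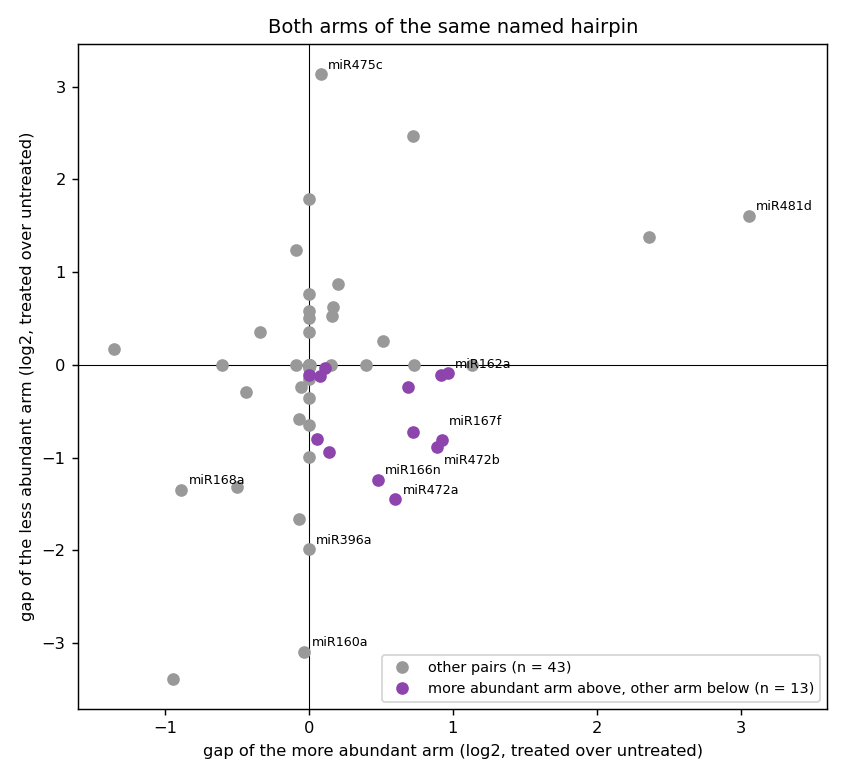
Log2 gap of the more abundant arm (x axis) against that of the less abundant arm (y axis) for 56 pairs of arms from the same named hairpin, treated over untreated, with 0 where the untreated value lay inside the treated range. The 13 purple points, among them miR472a, miR472b, miR167f, miR166n and miR162a, have the abundant arm above and the other arm below.

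Length classes differed in where the untreated library lay. The mean over 3 treated libraries and 1 untreated library lets scarce sequences in through the treated ones, so the counts of classes with few untreated reads are a description and support no relation to length. Of the 10 sequences of 18 nt, 0 lay above, 8 below and 2 inside, and of the 57 sequences of 18 to 20 nt, 6 lay above and 38 below. At 21 nt, the length of most plant microRNAs, 54 of 168 lay above and 68 below, and at 22 nt 30 of 66 lay above and 16 below. The counts at 21 nt were 28 above and 93 below with equal table totals, and those at 22 nt turned, to 22 above and 30 below. Of 56 listed sequences of 24 nt, the length class that DCL3 makes, 26 were compared, of which 19 lay above, 0 below and 7 inside, and 12 were past 2-fold. Under equal table totals the 24 nt class had 16 above and 2 below, and the 18 nt class 0 above and 9 below. The 24 nt sequences were scarce, with a median of 8.50 reads in the untreated library against 74.5 over all 350, and of the 8 with a mean of at least 100 there were 5 above and 0 below. The 24 nt sequence stu-MIR8005c-p5_1ss11AG, picked out after its values were seen, reads aGGGTTTAgggtttagggtttagg, repeats of the unit TTTAGGG that plant telomeres carry. It stood at 120, 79.1 and 71.3, against 17.6 in the untreated library, 4.04-fold higher in the nearest treated library. By its first base, 79 of 171 sequences with a 5′ T lay above and 43 below, while 13 of 68 with a 5′ G lay above and 31 below. The balance for a 5′ T turned with equal table totals, to 46 above and 71 below, and for a 5′ G it was 12 above and 49 below.

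**Figure D5:**
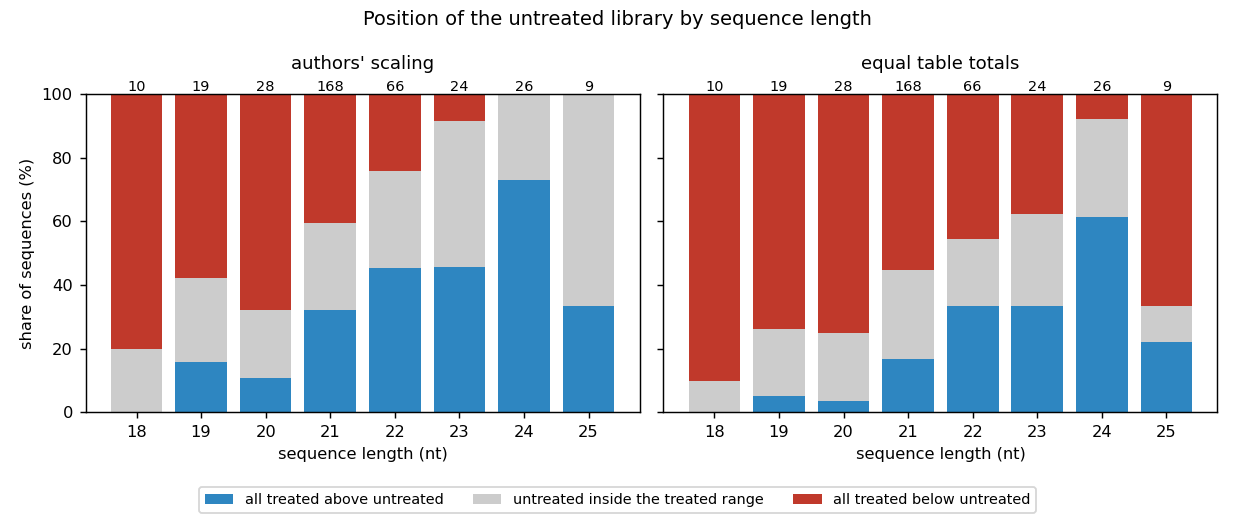
Share of sequences (y axis, percent) with all treated values above the untreated one, with the untreated value inside the treated range, or with all treated values below, by sequence length (x axis, nt), on the authors' scale (left) and with equal table totals (right); the number of sequences stands over each bar. At 18 nt 8 of 10 lie below and at 24 nt 19 of 26 lie above on the authors' scale.

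Names that resemble transfer or ribosomal RNA took a smaller share of the reads in the treated libraries. The sequences numbered miR2916, miR5368, miR6300, miR6478 and miR8175 made up 0.725%, 1.26% and 1.17% of the reads in the treated libraries, against 1.96% in the untreated library, where the Wilson 95% interval ran from 1.94 to 1.98. Of 35 such sequences, 1 lay above, 19 below and 15 inside, with a median log2 ratio of -1.06. The 1 above was gma-MIR5368-p3_1ss16CT, and the miR5368 total did not share the drop. It stood at 17549, 21000 and 21805 normalized read counts, against 15213 in the untreated library, but not above with equal table totals. Its share of the reads was 0.356%, 0.396% and 0.461%, against 0.425%. The 18 nt form gma-miR6300 stood at 1512, 3195 and 3558 normalized read counts, against 16341, 4.59-fold lower in the nearest treated library (4.43 to 4.76). The longer gma-miR6300_R+5_2 did not follow it on the authors' scale, at 5029, 14523 and 10136 around the untreated 11300. With equal table totals 19 of the 20 compared miR6300 sequences lay below. Among these 20, gma-miR6300_R+5_1 and gma-miR6300_R+5_2 had the same values, as had gma-miR6300_R+1_2 and gma-miR6300_R+1_3. Each of these pairs may be 1 pool of reads, here and in the count of 35. ath-miR8175_L-2, which ends in the letters CCA that close mature transfer RNAs, stood at 281, 137 and 152, against 1310. gma-miR1511_R-2, an 18 nt form that also ends in CCA, stood at 62.1, 33.3 and 52.6, against 385, 6.20-fold lower in the nearest treated library (4.71 to 8.28). Of all 17 compared sequences that end in CCA, 5 lay above, 8 below and 4 inside. Without the transfer and ribosomal RNA-like names, 26 of 41 sequences of 18 to 20 nt lay below and 6 above, and 19 of 24 sequences of 24 nt lay above and 0 below. The part of such names in the results of the other families was not tested.

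The fit across all 350 sequences took the spread among the 3 treated libraries, doses included, as its error, with the lone untreated library taken to vary like them. In edgeR's quasi-likelihood test with Benjamini-Hochberg adjustment, 0 sequences were higher and 0 lower in the treated libraries at an adjusted p of 0.05, 0% in each direction. The smallest adjusted p was 0.105. At an unadjusted p of 0.05 there were 39 higher and 33 lower, and DESeq2's Wald test called 13 higher, 3.71%, and 16 lower, 4.57%. The edgeR log2 ratio of ptc-MIR160d-p3 was -3.48 with a standard error of 0.42 and an adjusted p of 0.105. That of ptc-miR162a was 0.98 with a standard error of 0.27, higher in 3 of 3 treated libraries, and an adjusted p of 0.152 in the same edgeR fit. For ptc-miR156a it was -1.76 with a standard error of 0.36 and an adjusted p of 0.106. The number of calls depended on the 2 mM library. Without it the same edgeR test called 46 sequences higher and 52 lower, and 59 sequences lay below by 2-fold in place of 37, whereas without the 4 mM or the 8 mM library it called 0 in each direction. A p that misses the threshold does not show that values were alike, and with 1 untreated pool none of the gaps above can be set against the spread between untreated plants.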

How the data were processed

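Small RNA of 4 leaf libraries was analysed, 3 treated and 1 untreated, grouped by the labels. The submitters' processing notes name bcl2fastq 1.8.4. Which mapper, counter, genome build and microRNA database were used is not given in the sources used here. Per the file headers the authors deposited raw values, which are estimated counts that need not be whole. They also deposited normalized values, a linear signal in which each raw value is multiplied by a library factor, found here to be 0.986, 0.833 and 0.891 at 2, 4 and 8 mM and 1.36 at 0 mM. The 738 rows, with 578 names, were summed to 529 sequences, and 2 sequences had names of 2 families. Rows of the same sequence hold equal values, and whether these split or repeat its count is not given. If they repeat it, the intervals of such sequences are too narrow. Family numbers come from the first name. Sequences with a mean normalized value of at least 10 were kept, and gaps use log2(value + 1). A family total sums every sequence with its number, both arms included. The smallest family total above 0 was 5 reads, so low counts may be missing from the table. Near-identical forms cannot be separated by counting.

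Raw counts were rounded and fitted with edgeR 4.0.16 in R 4.3.3, with library sizes that give the authors' scale, 2 residual degrees of freedom and Benjamini-Hochberg adjustment; DESeq2 1.42.0 was an alternative. Other alternatives were the scaling (TMM, DESeq2 size factors, equal table totals), filter, pseudocount, a single row per sequence and leaving out each treated library. The procedure was tested on simulated data. Intervals were computed with scipy 1.17.1.

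Sequences named are the 12 with the widest gap in each direction, those listed at 0 in 1 group, the 20 most abundant, the 10 with the smallest edgeR p in each direction, and the most abundant sequence and total of each listed family. Others that are named (hairpin arms, shared seeds, length classes, the telomere-like sequence) were chosen after their values were seen. The members, lists and comparisons were chosen with earlier results of these data known. The authors' expression level class was not used. A member that was compared is not reported by name here.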

Additional observations from a re-analysis of the deposited data

How the results depend on the processing

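Counts of sequences wholly above and wholly below were 123 and 124. A mean of at least 100 gave 67 and 62, with 10 above and 18 below by 2-fold, since only 181 sequences are compared. Without the filter 57 were above and 67 below by 2-fold. Equal table totals gave 78 wholly above and 65 below by 2-fold, and a pseudocount of 10 gave 21 above by 2-fold in place of 33, which lowers gaps of scarce sequences. Leaving out 1 treated library at a time gave 135 to 147 wholly above and 130 to 150 wholly below, 35 to 44 above and 48 to 59 below by 2-fold, and 0 to 46 edgeR calls higher and 0 to 52 lower, the highest edgeR counts without the 2 mM library. Fewer treated libraries widen the gaps by construction. DESeq2's Wald test called 13 higher and 16 lower where edgeR called 0, and edgeR with equal table totals called 13 lower; the cause was not tested. TMM, DESeq2 size factors and a single row per sequence kept these range counts within 1.5 times, and edgeR called 0 under each.

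The gaps of 5 named results turned from positive to negative with equal table totals: ptc-miR482c-3p (-0.11), ptc-miR1450_R-1 (-0.11), the miR1450 total (-0.11), ptc-MIR6462a-p3_1ss17GA (-0.10) and the miR6462 total (-0.22). No paired analysis was possible because the labels give no replicate numbers and the untreated group has 1 library. The untreated library had the fewest reads, so sequences with about 5 reads in it carry the widest intervals. With a single row per sequence the gap of the miR156 total was -0.33 in place of -0.65, and that of the miR160 total -0.51 in place of -0.29.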
